A study of Mus musculus with 13 samples.

Results

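The genes described here are 32 markers of blood vessels, 27 of endothelial cells and 5 of pericytes, chosen by symbol from a fixed list among the 48709 mouse genes counted. Expression was measured by bulk RNA-seq of whole enamel organs, the dental epithelium that makes enamel, taken from the lower incisors of mice at postnatal day 11. Het mice (5 libraries) carry Tgfbr2 G357W on 1 allele, a substitution in the type II TGF-beta receptor used as a model of Loeys-Dietz syndrome (LDSR2). WT mice (8 libraries) are littermates of genotype Tgfbr2 +/+. The labels name no driver or cell type that limits the allele and no sorting of cells, so vessel and dental cells were taken to carry the same genotype.

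Next to maturing ameloblasts, the enamel organ forms a papillary layer whose folds enclose a dense capillary bed. Endothelial cells line these vessels. They sense VEGF and angiopoietins through receptor tyrosine kinases and hold together through junction proteins. Pericytes wrap the capillaries and depend on PDGF-BB, secreted by endothelium, through the receptor encoded by Pdgfrb. The measured tissue is a whole organ, so the position of a transcript in papillary or other vessels was not measured and the genes are called vessel genes below. In such bulk RNA, fewer vessel cells and less RNA per vessel cell cannot be told apart.

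All 32 vessel genes had counts in every library and passed the filter on low counts. The 31 genes other than Rgs5 had 8 to 1560 counts in a library. Total counts were 20266079 to 26122340 in Het libraries and 18852382 to 26508410 in WT libraries. The labels call the cell type dental epithelial cells, and dental epithelial genes led the libraries: Ambn, Odam, Amelx and Enam, which encode enamel matrix and ameloblast proteins, were the 4 genes with the highest CPM, the counts scaled to a common library size. The libraries are unstranded, so reads cannot be told apart where exons of a vessel gene and of a gene on the other strand coincide. From start to end, introns included, 10 of 32 vessel genes overlap such a gene. Whether their exons overlap was not measured. Over all libraries Nos3 had 732 counts, beside 1914 of Atg9b, and Plvap 780, beside 948 of Gtpbp3. Egfl7 had 15018, beside 3761 of Agpat2, and Angpt2 2753, beside 693 of Mcph1. Of 6 lymphatic markers, 4 had few counts in a library, with 0 to 20 of Prox1, 0 to 12 of Lyve1, 0 to 2 of Ccl21a and 0 to 24 of Mmrn1, while Pdpn had 203 to 452 and Reln 106 to 282. Each library has a number pair such as 5-6, and the number before the hyphen is called its prefix. There are 2 Het and 2 WT libraries of prefix 5, 2 and 3 of prefix 4, and 1 and 3 of prefix 1. The labels do not say what a prefix stands for. The 4 libraries of prefix 5 stood apart from the rest in vessel genes, as described after the genotypes.

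The promoters of 4 vessel genes are shown, picked for the levels of these genes. Cldn5, Tie1 and Kdr were among the 7 vessel genes that differed between prefixes, and Rgs5 had a level unlike any other vessel gene. The sequences entered no test. Each sequence is the 250 bases before a RefSeq gene start (GRCm38.p6), 5′ to 3′ on the gene's strand, and capitals mark the motif AGGAAG or its reverse complement CTTCCT, a short form of the site bound by ETS factors such as Erg.
Cldn5: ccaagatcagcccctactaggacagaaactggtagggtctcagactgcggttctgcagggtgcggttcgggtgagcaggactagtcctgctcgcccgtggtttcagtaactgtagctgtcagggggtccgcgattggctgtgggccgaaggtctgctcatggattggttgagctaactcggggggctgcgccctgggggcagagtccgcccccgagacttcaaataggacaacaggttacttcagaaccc
Tie1: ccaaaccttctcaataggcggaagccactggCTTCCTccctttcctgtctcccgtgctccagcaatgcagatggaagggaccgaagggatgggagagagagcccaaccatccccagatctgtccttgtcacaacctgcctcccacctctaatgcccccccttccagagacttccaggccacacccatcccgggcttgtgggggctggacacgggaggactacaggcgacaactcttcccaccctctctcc
Kdr: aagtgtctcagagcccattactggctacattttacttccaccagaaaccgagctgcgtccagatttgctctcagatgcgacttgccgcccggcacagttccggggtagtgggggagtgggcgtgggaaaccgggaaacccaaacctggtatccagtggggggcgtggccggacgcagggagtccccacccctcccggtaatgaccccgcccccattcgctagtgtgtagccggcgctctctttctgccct
Rgs5: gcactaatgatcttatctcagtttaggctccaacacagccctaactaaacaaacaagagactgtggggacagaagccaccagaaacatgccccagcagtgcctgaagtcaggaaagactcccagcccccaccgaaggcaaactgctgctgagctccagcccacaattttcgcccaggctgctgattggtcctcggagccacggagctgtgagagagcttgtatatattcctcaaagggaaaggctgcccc
The Cldn5 bases lie at chr16:18776597-18776846 on the plus strand, those of Tie1 at chr4:118489850-118490099 and of Kdr at chr5:75978456-75978705 on the minus strand, and those of Rgs5 at chr1:169655251-169655500 on the plus strand. The motif was searched on both strands in windows of 250 bases before to 50 after each start. It occurs in 9 of 22 windows of the 18 vessel genes that have one (40.9%), against 35.4% of all 32851 windows. The Tie1 window holds 2 matches, of which 1 is in the bases printed, and the other 3 windows hold 0.

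Rgs5, an inhibitor of G protein signalling widely used as a pericyte marker, dominated the vessel genes. It had 8580, 10400, 7140, 10200 and 8360 CPM in the Het libraries, and 6560 to 14300 CPM with a median of 9290 in the WT libraries. The Het values lie within the WT range. Rgs5 took 0.920% ± 0.143 of all counts in the 5 Het libraries and 0.969% ± 0.269 in the 8 WT libraries (mean ± SD), which made it the gene of rank 6 by CPM in the whole table. Scaled by exon length, its level was 2090 CPM per kb. This was 152 times that of Egfl7 (13.7 CPM per kb), the next vessel gene, and 1470 times the median of the other 4 pericyte genes. It was also 7th of all genes tested on that scale, where the median was 2.41. The other pericyte genes Pdgfrb, Kcnj8, Cspg4 and Abcc9 stood at 3.41, 1.72, 1.13 and 1.04 CPM per kb, and the pericyte mean is given with and without Rgs5. Which cells its counts come from was not tested.

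The other vessel genes spanned 0.128 (Notch4) to 13.7 CPM per kb. After Egfl7 came Esam (9.03), Clec14a (5.80), Ecscr (5.35) and Aplnr (4.95). The transcription factor genes were low, with Sox18 at 1.19, Erg at 0.263 and Sox17 at 0.153 CPM per kb. The receptors ranged from 0.426 CPM per kb for Flt4 to 2.28 for Tie1.

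**Figure D1:**
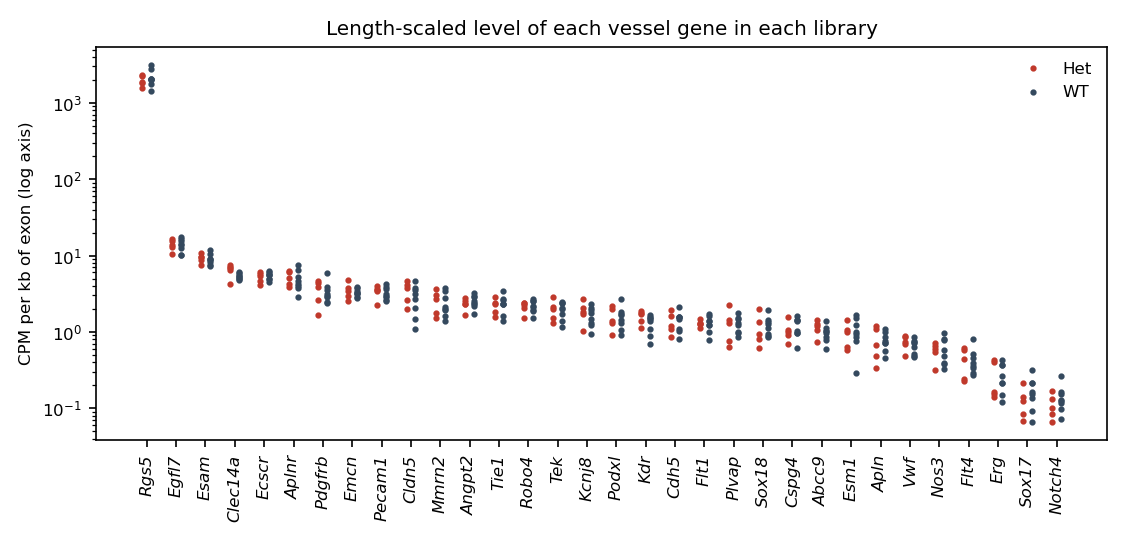
Level of each vessel gene in each library in CPM per kb of exon on a log axis, with Het libraries in red left of WT libraries in dark blue and genes ordered by their mean. Rgs5 stands at about 2090 CPM per kb, and the other 31 genes average between 0.128 and 13.7, with Het and WT points overlapping in every gene.

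The first comparison asks whether vessel genes differ between Het and WT enamel organs. None of the 32 vessel genes passed the threshold (edgeR's quasi-likelihood test, Benjamini-Hochberg adjusted p under 0.05), where 0.0857% of the 16328 genes tested did. DESeq2 and limma-voom also called 0 of the 32. At an unadjusted p under 0.05 there was 1 vessel gene, Clec14a, where 6.90% of all genes lie. The Het and WT ranges were apart in 0 of 32, where they were apart in 0.490% of all genes. Log2 fold changes of Het over WT ran from -0.43 (Sox17) to 0.29 (Kdr), 14 positive and 18 negative. Their median was -0.0076, beside -0.0044 over all genes tested.

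Clec14a, a C-type lectin of the endothelial surface active in sprouting, had the lowest p. It stood at 31.7, 32.7, 29.7, 34.4 and 19.2 CPM in the Het libraries 1-2, 4-2, 4-5, 5-5 and 5-6, and at 21.6 to 28.1 CPM with a median of 24.3 in WT. The first 4 Het libraries lie above every WT library, and Het 5-6 lies below every one. The mean was 29.6 ± 6.02 CPM in Het and 24.6 ± 2.20 in WT (SD, n = 5 and 8). The log2 fold change of 0.26 ± 0.12 (SE) had a 95% interval of 0.01 to 0.52. Its unadjusted p was 0.0441 and its adjusted p in the edgeR fit over all genes 0.711. Without Het 5-6 the adjusted p was 0.304.

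The other junction and surface genes gave intervals that all included 0. Pecam1 (CD31), the usual histological marker of endothelium, had 21.5, 24.6, 21.7, 22.9 and 14.2 CPM in Het, and 16.0 to 26.0 with a median of 18.9 in WT. Again Het 5-6 was lowest, and the other 4 Het libraries lie within the WT range. The means were 21.0 ± 3.99 and 20.1 ± 3.69 CPM in Het and WT (SD, n = 5 and 8), with a log2 fold change at 0.07 ± 0.14 (SE; adjusted p = 0.948, edgeR). Cdh5, the VE-cadherin of endothelial adherens junctions, averaged 5.62 ± 1.85 CPM in Het and 5.91 ± 1.76 in WT, and Esam, an adhesion molecule of tight junctions, 26.4 ± 3.52 and 25.6 ± 4.28. Cldn5, the endothelial claudin, had 5.34, 5.77, 6.49, 3.65 and 2.81 CPM in Het, and 1.56 to 6.60 with a median of 4.09 in WT. The log2 fold change, 0.28 ± 0.29 (SE; adjusted p = 0.872, edgeR), was the largest of the group. Plvap, which forms the diaphragms of fenestrated capillaries, was level at 2.53 ± 1.25 CPM in Het and 2.52 ± 0.632 in WT. The remaining 5 (Emcn, Podxl, Robo4, Ecscr and Mmrn2, sialomucins, a guidance receptor and other surface or matrix proteins of endothelium) had log2 fold changes between -0.08 and 0.09.

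Among the receptors, Kdr (VEGFR2, the main signalling receptor for VEGF-A) had the largest fold change. It had 15.8, 15.6, 16.7, 10.3 and 12.5 CPM in Het libraries 1-2, 4-2, 4-5, 5-5 and 5-6, and 6.20 to 14.9 with a median of 12.9 in WT. The libraries of prefixes 1 and 4 lie higher in Het than every WT library, and both Het libraries of prefix 5 lie higher than both WT libraries of prefix 5 (8.09 and 6.20). The log2 fold change was 0.29 ± 0.19 (SE, edgeR adjusted p = 0.789). In the fit with the prefix as a term it was 0.40, with an edgeR adjusted p of 0.284, the lowest of the vessel genes there. Cldn5 was at 0.45 in that fit (edgeR adjusted p = 0.453). At an unadjusted p under 0.05 that fit had 3 vessel genes, Kdr, Cldn5 and Clec14a, beside 1603 of the 16328 genes tested. Flt1, a high-affinity receptor that traps VEGF-A, averaged 17.4 ± 1.73 CPM in Het and 17.5 ± 4.21 in WT (SD, n = 5 and 8). The angiopoietin receptor Tek (Tie2) averaged 9.23 ± 2.82 and 9.19 ± 2.32 CPM in Het and WT. Tie1, its co-receptor, averaged 10.7 ± 2.45 and 11.5 ± 3.12, and Flt4, the VEGF-C receptor, 3.46 ± 1.50 and 3.53 ± 1.42.

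The 3 transcription factor genes had few counts and wide intervals. Sox17, which acts in arterial endothelium, had 8 to 37 counts in a library and averaged 0.604 ± 0.274 CPM in Het and 0.808 ± 0.376 in WT, with a 95% interval of its log2 fold change from -1.24 to 0.39. Erg, an ETS factor that maintains endothelial identity, averaged 0.894 ± 0.495 CPM in Het and 0.922 ± 0.393 in WT, and Sox18 averaged 1.85 ± 0.893 and 1.99 ± 0.581. At these counts a change within such intervals was not detectable.

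Of the secreted and signalling genes, Egfl7, an endothelial matrix protein, averaged 49.1 ± 8.23 CPM in Het and 49.3 ± 9.65 in WT (SD, n = 5 and 8), with a log2 fold change at -0.0039 ± 0.14 (SE; adjusted p = 0.997, edgeR). Vwf, the clotting protein stored in endothelium, was at 0.19 ± 0.17, Nos3 (endothelial nitric oxide synthase) at -0.07 ± 0.28, and the Notch receptor gene Notch4 at -0.32 ± 0.33 (log2 fold change ± SE), none past the threshold. Among genes of sprouting tip cells and apelin signalling, log2 fold changes were -0.01 for the ligand Apln, 0.08 for its receptor Aplnr, -0.13 for Esm1 (endocan, a tip cell proteoglycan) and -0.13 for Angpt2, the angiopoietin that destabilises vessels (lowest edgeR adjusted p = 0.895).

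Pericyte genes did not differ between genotypes beyond the spread of the libraries either. Pdgfrb had 21.0, 23.7, 25.4, 14.4 and 9.01 CPM in Het, and 12.9 to 32.6 with a median of 16.9 in WT. The lowest Het library, 5-6, lies below every WT library, and the highest library is WT 4-4. The means were 18.7 ± 6.86 CPM in Het and 18.6 ± 6.32 in WT (SD, n = 5 and 8). Abcc9 and Kcnj8, the subunits of the pericyte and smooth muscle ATP-sensitive potassium channel, stood at log2 fold changes of 0.25 ± 0.18 and 0.18 ± 0.23 (SE). Cspg4, the NG2 proteoglycan, stood at -0.17 ± 0.21. Rgs5 was at -0.14 ± 0.18 (SE, edgeR adjusted p = 0.903).

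**Figure D2:**
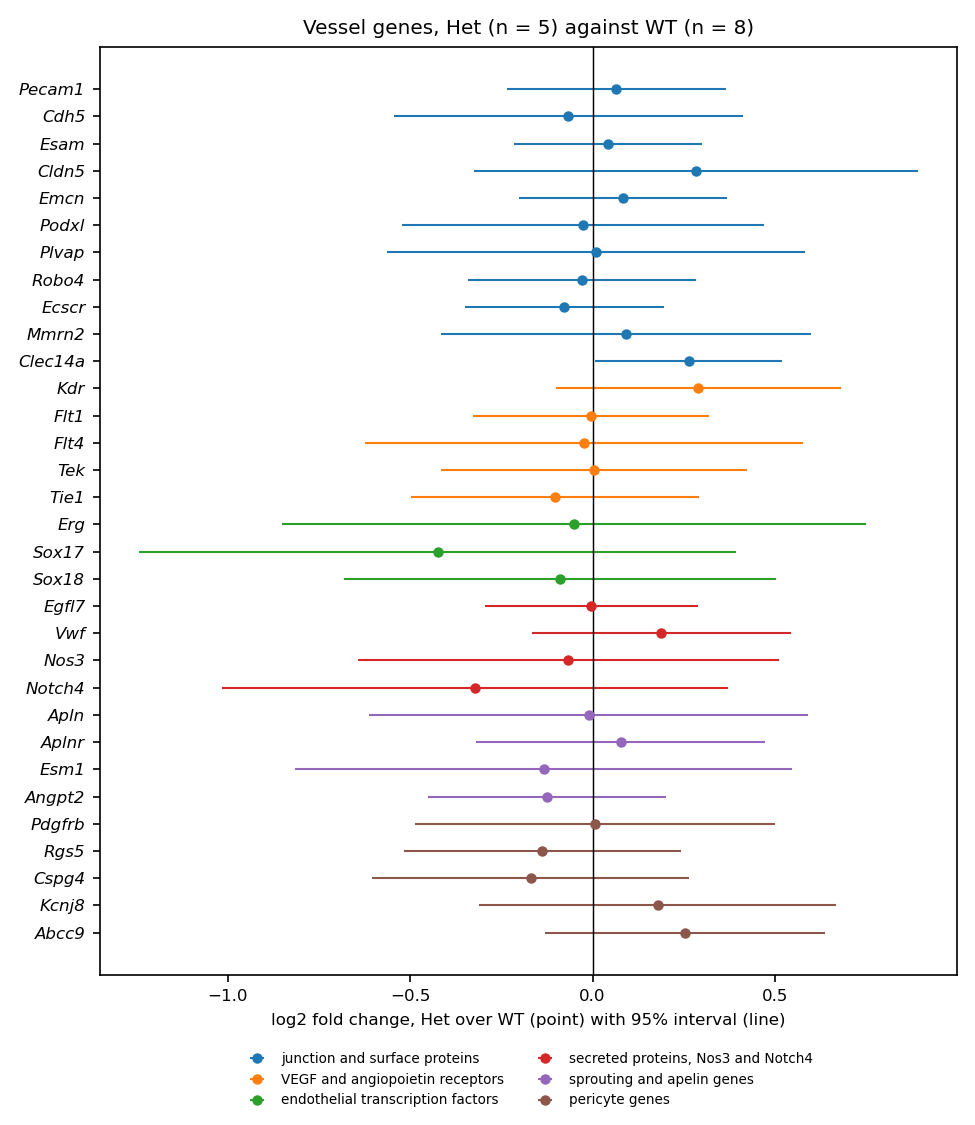
Log2 fold change of Het over WT for each of the 32 vessel genes (points) with 95% intervals (lines), coloured by role. Every interval but that of Clec14a (0.01 to 0.52) includes 0, and the widest belong to the low genes Sox17, Erg and Notch4.

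The mean over the 27 endothelial genes, taken as a measure of vessel RNA per library, was 2.70 ± 0.31 log2 CPM in Het and 2.71 ± 0.24 in WT (SD, n = 5 and 8). Het minus WT was -0.0060. Within prefixes 5, 4 and 1 the difference of Het minus WT was -0.02, 0.11 and 0.09. The single libraries were 2.88, 2.94, 2.95, 2.49 and 2.27 in Het 1-2, 4-2, 4-5, 5-5 and 5-6, and 2.35 to 3.10 in WT. The mean of the 5 pericyte genes was 5.26 ± 0.33 log2 CPM in Het and 5.24 ± 0.32 in WT. Without Rgs5 it was 3.30 ± 0.43 and 3.24 ± 0.33.

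The second comparison asks whether vessel genes vary with the library prefix, fitted with genotype in the model. It was made with earlier results of these data known, in which libraries grouped by prefix. Vessel genes were lower in the 4 libraries of prefix 5. The prefix test called 7 of 32 vessel genes (edgeR quasi-likelihood F test, adjusted p under 0.05), beside 6.08% of all genes, and all 7 were lower in prefix 5 than in prefix 1, beside 3.58% of all genes called in that direction. They are the junction and surface genes Cldn5, Podxl and Mmrn2, the receptor genes Kdr, Flt4 and Tie1, and Egfl7. With or without a call, 29 of 32 were lower in prefix 5 than in prefix 1, beside 49.3% of all genes. The 3 exceptions were Emcn, Tek and Angpt2. The median log2 fold change of prefix 5 over prefix 1 was -0.46, beside 0.0042 over all genes tested.

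Tie1 shows the pattern most plainly. It had 8.99, 7.69, 8.05 and 6.84 CPM in the prefix 5 libraries Het 5-5, Het 5-6, WT 5-1 and WT 5-3, and 11.3 to 17.0 with a median of 11.7 in the other 9 libraries. The ranges do not overlap, and both genotypes lie on the low side. The log2 fold change of prefix 5 over prefix 1 was -0.57, and the F test over all prefixes gave an edgeR adjusted p of 0.0130. Each adjusted p between prefixes given here comes from that joint test, and prefix 5 against prefix 1 alone was not tested. Mmrn2, a matrix protein that binds VEGF-A and Clec14a, had 7.10, 6.02, 6.42 and 5.52 CPM in the same libraries and 7.80 to 15.1 with a median of 11.0 in the others (log2 fold change -0.94, edgeR adjusted p = 0.0252). Flt4 had 1.89, 1.98, 2.41 and 2.22 CPM there and 2.80 to 6.64 elsewhere (-0.72, edgeR adjusted p = 0.0303). In both genes the ranges are again apart. Podxl, called at an adjusted p of 0.0265, and Cdh5, not called (edgeR adjusted p = 0.0577), also had every prefix 5 library below every other, so that 5 of 32 vessel genes did, beside 1.98% of all genes tested.

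Cldn5 had the smallest p among vessel genes, with 3.65, 2.81, 1.56 and 2.10 CPM in Het 5-5, Het 5-6, WT 5-1 and WT 5-3, and 2.94 to 6.60 elsewhere. Its ranges overlap, and within prefix 5 both Het libraries are above both WT libraries. The log2 fold change of prefix 5 over prefix 1 was -0.92, and the F test over all prefixes gave an edgeR adjusted p of 0.0129. Kdr was at -0.63 (same F test, edgeR adjusted p = 0.0159) and Egfl7 at -0.37 (same F test, edgeR adjusted p = 0.0178). Emcn went the other way, at 21.3 ± 3.26 CPM in prefix 5 (SD, n = 4), 16.2 ± 1.88 in prefix 4 (n = 5) and 17.4 ± 2.13 in prefix 1 (n = 4), and was not called (edgeR adjusted p = 0.154).

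The endothelial mean was 2.39 ± 0.10 log2 CPM in prefix 5 (SD, n = 4), 2.88 ± 0.18 in prefix 4 (n = 5) and 2.82 ± 0.12 in prefix 1 (n = 4). The highest prefix 5 library (2.49) lies below the lowest other library (2.65). The pericyte mean without Rgs5 was 2.85 ± 0.17, 3.53 ± 0.28 and 3.33 ± 0.11 in prefixes 5, 4 and 1, with 3.05 as the highest prefix 5 library and 3.20 as the lowest other. All 5 pericyte genes were lower in prefix 5 than in prefix 1, beside 49.3% of all genes. The prefix test called 0 of 5, beside 6.08% of all genes. Pdgfrb had the lowest edgeR adjusted p (0.0526), and 3 of 5 had an unadjusted p below 0.05.

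Markers of other cell types gave mixed values between prefixes. The counts below stand beside 49.3% of all genes lower in prefix 5 than in prefix 1, and 6.08% called between prefixes. Of 8 smooth muscle genes, 7 were lower in prefix 5 than in prefix 1. Their mean was 2.41 ± 0.12 log2 CPM in prefix 5, 2.97 ± 0.11 in prefix 4 and 2.78 ± 0.21 in prefix 1, with 2 genes called and the prefix 5 libraries apart from the others (2.30 to 2.54 against 2.59 to 3.15). Of 8 fibroblast genes, 5 were lower in prefix 5 than in prefix 1. Their mean was 7.50 ± 0.29, 7.95 ± 0.29 and 7.67 ± 0.16 in prefixes 5, 4 and 1, with 3 genes called and ranges that overlap (7.07 to 7.71 against 7.44 to 8.39). Col1a1, the collagen gene of fibroblasts and odontoblasts, was at log2 fold changes of -0.60 for prefix 5 and 0.62 for prefix 4, each over prefix 1, and was called by the F test over all 3 prefixes (edgeR adjusted p = 0.00752). Of 12 ameloblast and dental epithelium genes, 3 were lower in prefix 5 than in prefix 1, and the median log2 fold change was 0.17. Their mean was 10.29 ± 0.13, 10.19 ± 0.16 and 10.17 ± 0.07, with 0 of 12 called (edgeR; 4 had an unadjusted p below 0.05). Erythroid genes averaged 4.77, 4.51 and 4.60 log2 CPM, with 3 of 6 lower in prefix 5 than in prefix 1. Immune genes averaged 3.42, 3.22 and 3.35, with 6 of 8 lower, and 0 were called in either list. Skeletal muscle genes averaged 1.07, 0.66 and 2.23, with 7 of 7 tested lower and 1 called. Nerve genes averaged 2.55, 3.06 and 2.72, with 4 of 6 lower and 0 called. Of lymphatic genes 2 of 3 tested and of platelet genes 1 of 3 tested were lower, with 0 called. The part of these cell types in the prefix difference of vessel genes was not tested beyond 1 fit, added after the data were seen: with the fibroblast mean as a covariate, 1 vessel gene (Kdr) was called, and the share over all genes was 3.46%. The median log2 fold change of the vessel genes for prefix 5 over prefix 1 was -0.39 in that fit, and 28 of 32 were lower in prefix 5.

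The number of calls between prefixes changed with single libraries, among vessel genes and among all genes. Without WT 5-1 there were 0 called vessel genes, beside 1.73% of all genes, and without WT 5-3 there was 1 (Cldn5), beside 2.94%. Without Het 5-5 there were 3, beside 2.44% of all genes, and without Het 4-2 there were 4, beside 2.42%. DESeq2 called 15 vessel genes, beside 15.5% of the 13787 genes it gave an adjusted p, and these held all 7 of the edgeR calls. The sources used here do not tie the prefixes to the study's design.

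**Figure D3:**
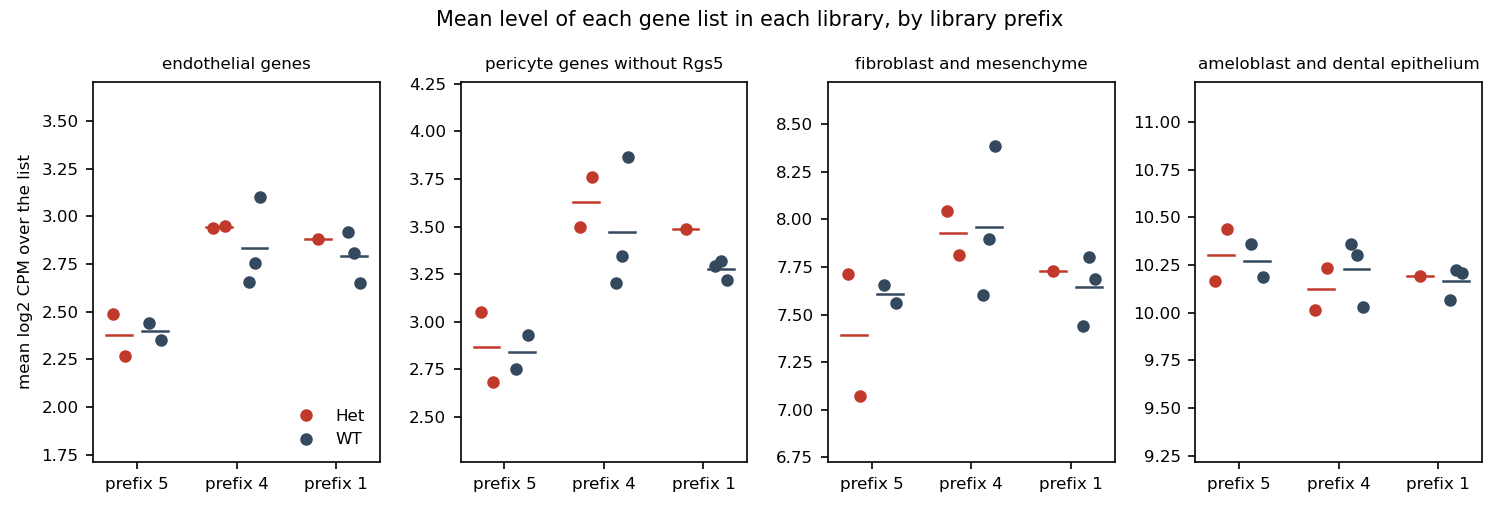
Mean log2 CPM of 4 gene lists in each library (points) by prefix, with Het in red left of WT in dark blue and lines at the group means; each panel spans the same width of scale. The endothelial and pericyte means of all 4 prefix 5 libraries lie below those of the other 9 libraries in both genotypes, while the ameloblast means lie between 10.01 and 10.44 in all 13.

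How far the vessel genes varied together was described by the correlation of each gene with the mean of the 27 endothelial genes (the gene itself left out) over the 13 libraries, after genotype and prefix means were removed. These correlations are descriptions over libraries that share composition and depth, with no test. Their median over the 27 endothelial genes was 0.41, beside -0.0011 over all genes tested, and 13 of 27 lay above 0.5, beside 9.96% of all genes. Mmrn2 (0.86), Flt4 (0.86), Esam (0.84) and Pecam1 (0.83) followed the mean most closely. Pdgfrb, a pericyte gene outside the mean, had 0.88 (Spearman's rho 0.58). The 4 sprouting and apelin genes were spread, with Aplnr at 0.70, Angpt2 at 0.56, Apln at -0.20 (rho -0.05) and Esm1 at -0.29 (rho -0.26). Erg was at 0. Over all 496 pairs of vessel genes the median correlation was 0.26. Without the adjustment for genotype and prefix, the median over the 27 endothelial genes was 0.73, and Apln and Esm1 were positive (0.51 and 0.46). Emcn, Tek and Ecscr were then at -0.50, -0.19 and -0.01, against 0.35, 0.20 and 0.20 with the adjustment.

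Rgs5 had a correlation of 0.53 with the endothelial mean, 0.45 with the mean of the other 4 pericyte genes and -0.76 with the mean of the ameloblast genes (rho 0.35, 0.23 and -0.68). With the ameloblast mean, Abcc9 stood at -0.75, Pdgfrb at -0.72, Kcnj8 at -0.27 and Cspg4 at 0.16. The endothelial and fibroblast means correlated at 0.70 after the same adjustment and at 0.72 without it. In CPM a higher share of one cell type lowers the share of another, and these values hold that constraint.

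**Figure D4:**
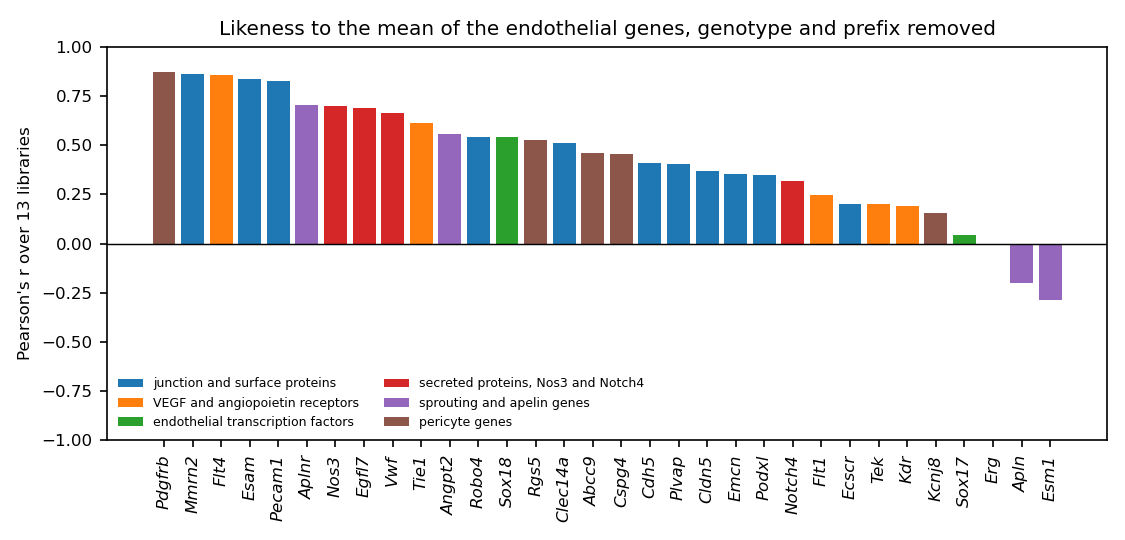
Pearson's r of each vessel gene with the mean of the endothelial genes over 13 libraries after genotype and prefix means were removed, bars coloured by role. Pdgfrb (0.88), Mmrn2 and Flt4 (0.86) are highest, Erg is at 0, and Apln and Esm1 lie below 0.

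Outside the vessel genes, the 10 named genes most like the endothelial mean were Vamp5 (0.95), Parva (0.93), S1pr1 (0.92), Ifitm5 (0.91), Pald1 (0.91), Coro1a (0.91), Tgfb3 (0.90), Arap3 (0.89), Dzip1l (0.88) and Spaca6 (0.88), with 1 predicted gene passed over. These genes were picked for the highest values, so the size of the values reflects that choice. Without the adjustment for genotype and prefix, Coro1a was at -0.22, Vamp5 at 0.35 and Spaca6 at 0.41, and the others at 0.63 to 0.93. S1pr1 encodes the endothelial sphingosine-1-phosphate receptor, and Ifitm5 is a gene of osteoblasts. None of the 10 was called between Het and WT, with edgeR adjusted p from 0.778 to 0.994.

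Other genes of the vessel pathways were read from lists chosen by role. No gene of these lists was called between Het and WT. Of 11 tested ligands and co-receptors of VEGF, angiopoietin and PDGF signalling, 2 were positive and 9 negative, with a median log2 fold change of -0.16 and 2 at an unadjusted p under 0.05, beside 6.90% of all genes. Nrp1, a co-receptor of VEGFR2, averaged 57.2 ± 3.35 CPM in Het and 49.5 ± 2.39 in WT (SD, n = 5 and 8). Its ranges were apart, and the log2 fold change, 0.21 ± 0.08 (SE), missed the threshold (edgeR adjusted p = 0.628). Pdgfb, whose product recruits pericytes, averaged 3.06 ± 0.631 and 4.13 ± 0.842 CPM in Het and WT, a log2 fold change of -0.43 ± 0.19 (edgeR adjusted p = 0.699).

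Of 12 genes of endothelial TGF-beta and BMP signalling, 4 were positive and 8 negative, with a median of -0.11 and 3 at an unadjusted p under 0.05, beside the same 6.90% of all genes. The list's mean was 4.22 ± 0.15 log2 CPM in Het and 4.40 ± 0.14 in WT (SD, n = 5 and 8), and within prefixes 5, 4 and 1 the difference was -0.09, -0.16 and -0.27. The BMP receptor gene Bmpr2 averaged 102 ± 10.8 CPM in Het and 124 ± 14.3 in WT (log2 fold change -0.28 ± 0.10, edgeR adjusted p = 0.566). Smad7, an inhibitor of TGF-beta receptors that the pathway itself induces, averaged 61.2 ± 11.0 and 80.8 ± 19.2 CPM (-0.40 ± 0.16, edgeR adjusted p = 0.635). Several of these genes are also expressed outside endothelium.

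Of 22 other pan-endothelial genes, 7 were positive and 15 negative, with a median of -0.06. Fli1, an ETS factor, was at -0.35 ± 0.14 and Calcrl, the receptor of adrenomedullin, at -0.35 ± 0.14 (log2 fold change ± SE, edgeR adjusted p = 0.630 and 0.644). Arterial genes had a median of -0.03, with Gja5 at -0.46 ± 0.31 and Efnb2 at -0.17 ± 0.17. Venous genes had a median of -0.03, with Selp at 0.40 ± 0.30 and Nr2f2 at -0.18 ± 0.17. Genes of fenestrated and capillary endothelium had a median of 0.13, with Nrp1 again and Rgcc at -0.25 ± 0.12. Other pericyte genes had a median of -0.0094, with Foxs1 at -0.67 ± 0.45 and Gucy1b1 at 0.30 ± 0.24. Between prefixes, 18 of 22 other pan-endothelial genes, 10 of 10 arterial genes and 10 of 11 other pericyte genes were lower in prefix 5 than in prefix 1, beside 49.3% of all genes. The prefix test called 1, 1 and 3 of them, beside 6.08% of all genes. Of venous genes 3 of 6 and of fenestrated and capillary genes 3 of 7 were lower in prefix 5, with 1 called in each.

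Markers of other cells that a dissected enamel organ can hold did not pass the threshold between Het and WT in any list. The 2 genes of smallest p in each, as log2 fold changes ± SE, were Mylk (-0.27 ± 0.18) and Des (-0.53 ± 0.47) for smooth muscle, Pdgfra (0.20 ± 0.10) and Col1a1 (-0.32 ± 0.29) for fibroblasts, and Pdpn (0.04 ± 0.16) and Reln (0.03 ± 0.21) for lymphatic endothelium. They were Itga2b (0.20 ± 0.26) and Gp1bb (-0.24 ± 0.45) for platelets, and Lyz2 (0.53 ± 0.28) and Cd14 (0.37 ± 0.22) for immune cells. For erythroid cells 1 gene is given, Hbb-bs (-0.18 ± 0.15). For skeletal muscle they were Mylpf (-0.51 ± 0.41) and Tnni2 (-1.03 ± 0.93), for nerve Mbp (0.68 ± 0.21) and Sox10 (0.56 ± 0.45), and for the dental epithelium Amtn (-0.45 ± 0.15) and Klk4 (-0.30 ± 0.13). The lowest edgeR adjusted p among all of these was 0.408, for Mbp, the myelin basic protein.

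Gpr4, a proton-sensing receptor best known from endothelial cells but not among the 32 vessel genes, was called between Het and WT. The cells that express it here were not identified. It was added because earlier results of these data had shown the call, so its values describe it. It had 13.2, 12.3, 12.8, 11.3 and 15.4 CPM in the Het libraries, and 16.8 to 26.2 with a median of 22.4 in WT. The ranges do not overlap. The log2 fold change stood at -0.76 ± 0.12 (SE; adjusted p = 0.0125, edgeR), a ratio of 0.589 with a 95% interval of 0.494 to 0.703. With the endothelial mean as a covariate the log2 fold change was -0.76. That mean was nearly equal in Het and WT (2.70 and 2.71 log2 CPM), so the covariate could change the fold change little. The part of vessel content in the call was not tested. Within genotype and prefix, the correlation of Gpr4 with the endothelial mean was -0.71 (rho -0.56) over the 13 libraries, where 1.55% of all genes tested lay lower. That value rests on WT 4-4 and WT 4-1, the libraries farthest from the median of that mean, and was -0.40 without them. Without the adjustment for genotype and prefix it was -0.29. The call was lost without the libraries of prefix 1, 4 or 5 (edgeR adjusted p = 0.434, 0.113 and 0.201), while the log2 fold change stayed between -0.78 and -0.72.

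**Figure D5:**
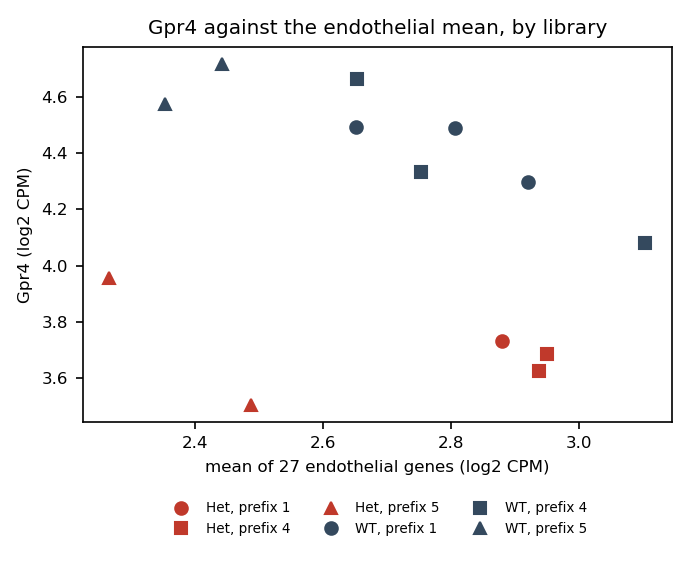
Gpr4 in log2 CPM against the mean of the 27 endothelial genes in log2 CPM, 1 point per library, Het in red and WT in dark blue, with the marker giving the prefix. The 5 Het libraries lie below all 8 WT libraries at both low and high endothelial means.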

How the data were processed

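A library stands for 1 mouse. Per the labels' protocols, Nextera XT libraries (unstranded) were sequenced in 2 runs of a NextSeq 500 with single reads of 75 bases. The labels do not tie libraries to runs. STAR 2.5.2a, GRCm38, DESeq2, edgeR and limma appear without their roles in the submitters' processing notes, and no counting tool is named.

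The authors deposited raw counts of 48733 features, and these counts entered every test. The 24 spike-in and transgene features (at most 0.000177% of a library's counts) were left out. A filtered count table by the authors (21223 features) holds equal counts, and a deposited table of normalized signal equals the counts times 1 constant per library; neither was used for a test. Columns name the genotype and a number pair but no replicate number of the labels.

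Genes passing filterByExpr (count minimum 10), 16328 in all, were tested with edgeR 4.0.16 (TMM, robust glmQLFit) in R 4.3.3, with Benjamini-Hochberg adjustment over all of them and a threshold of 0.05. The p-values measure the spread between these libraries. CPM uses TMM-scaled library sizes, and log2 CPM a prior count of 2. Standard errors (SE) come from the F statistic, and intervals are at 95%. Exon lengths and positions are from GENCODE M21 (GRCm38), promoters from RefSeq. All vessel genes, up to 4 called genes or the 2 of smallest p in each other list, the 10 genes most like the endothelial mean, and Gpr4 were named by rule; 1 erythroid gene that the rule names is not reported here. The vessel genes and all lists were chosen with earlier results of these data known. The fits were tested on simulated data. As alternatives, size factors (RLE or upper quartile), the filter, the tool (DESeq2 1.42.0 or voom of limma 3.58.1), the prefix as a term and the libraries left out were varied.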

Additional observations from a re-analysis of the deposited data

Results flagged for a closer look

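In 3 of the 70 group values examined (the 32 vessel genes, Gpr4 and the endothelial and pericyte means in each genotype), the lowest library lay further from the others than a gap test at the 95% level allows, where chance gives about 1 in 20. Both Het values come from library 5-6. Pecam1 was at 3.84 log2 CPM in Het 5-6, and the nearest Het library was at 4.43. Clec14a was at 4.27 log2 CPM in Het 5-6, and the nearest Het library was at 4.90. In WT, Esm1 was at -0.55 log2 CPM in WT 5-3 (14 counts), and the nearest WT library was at 0.74. The endothelial mean of Het 5-6 (2.27 log2 CPM) was also the lowest of the 13 libraries. All 3 values are from libraries of prefix 5. Their part in the low values was not tested.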

How the results depend on the processing

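The count of 0 called vessel genes between Het and WT held in every alternative run. The count over all genes was 14, and it was 27 without a filter, 25 under a minimum of 1 CPM in 5 libraries (31 of 32 vessel genes tested), 74 with DESeq2, 30 with the prefix as a term, 0, 1 and 2 without the libraries of prefix 1, 4 and 5 (731, 909 and 1027 at an unadjusted p under 0.05), 2 without Het 1-2 and WT 1-4, and 6 to 22 with 1 library left out. Between prefixes the counts over all genes and vessel genes were 992 and 7, against 2140 and 15 with DESeq2, 609 and 7 without Het 1-2 and WT 1-4, 565 and 1 with the fibroblast mean as a covariate (an alternative added after the data were seen), and 280 to 1466 and 0 to 10 with 1 library left out. Het 1-2 and WT 1-4 had the highest skeletal muscle means, 2.84 and 3.99 log2 CPM, against -0.09 to 2.36 in the other libraries. The cause of the moves in these counts was not tested. With 1 library left out, the median log2 fold change of vessel genes lay between -0.08 and 0.09, the endothelial difference between -0.07 and 0.10 and the pericyte difference between -0.06 and 0.15. Without Rgs5 (added after the data were seen) the pericyte difference was 0.06, and with the median in place of the mean over the 5 genes -0.21. The sign of the log2 fold change turned in 0 to 11 of the 32 vessel genes in an alternative, none of them called. Apln moved most, to -0.64 without prefix 4. Gpr4 missed the threshold without Het 4-2 (edgeR adjusted p = 0.0529), without Het 5-5 (0.0626) and without Het 1-2 and WT 1-4 (0.130). Low counts limit Sox17, Erg and Notch4. No paired analysis was possible because the columns of the tables carry no replicate number of the labels, and the fit with the prefix as a term takes the prefix, not that number, as its block.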
